A study of Mus musculus with 22 samples.

Results

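Cells selected for Ly6G from mouse mammary tumours treated with entinostat plus anti-CTLA-4 were compared with cells selected in that way from vehicle-treated tumours. The comparison uses every sample labelled with either treatment, 4 given the drug pair and 6 given vehicle, 10 of the 22 samples in the series. All 655 endogenous genes of a myeloid immunity probe panel were measured, and the 420 whose mean passed background in at least 1 of the 5 groups were tested. Every sample came from female FVB-Neu-N mice aged 7 to 8 weeks, which were given 50000 NT2.5 cells, a line derived from a spontaneous mammary tumour, in the mammary fat pad. Treatment began 3 days later and ran for 3 weeks. The treated group received entinostat at 5 mg/kg daily by gavage in 0.5% methylcellulose and anti-CTLA-4 antibody at 100 µg per mouse. The vehicle group received 0.5% methylcellulose and isotype antibodies. The model was run with and without anti-HER2 antibody, and the labels do not say which these samples received. Anti-CTLA-4 without entinostat is not among the groups, so the effect of that antibody by itself is not measured. Cells were dissociated from tumours and taken by magnetic selection for Ly6G, and the labels call them granulocytic myeloid-derived suppressor cells (G-MDSCs). The labels do not tie samples to separate animals, so a p-value here reflects spread among samples that may be technical.

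Granulocytic myeloid-derived suppressor cells are neutrophil-lineage cells that accumulate in tumours and restrain T cells, through arginine depletion, prostaglandin synthesis, reactive oxygen and checkpoint ligands. Entinostat inhibits class I histone deacetylases, enzymes that remove acetyl groups from histones and so limit transcription at many genes. CTLA-4 is an inhibitory receptor of T cells that competes with CD28 for CD80 and CD86 on antigen-presenting cells, and an antibody against it is used to lift that restraint.

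The treated samples are called a, 1, b and 3 here, where a and b stand for 2 columns of the deposited table that carry the same name. Barcode counts recovered from the table totalled 165662 in sample a, 443871 in 1, 320237 in b and 309403 in 3, against 127353 to 247892 in the vehicle samples. All 4 treated samples lay on cartridge 2, and 3 vehicle samples lay on each of cartridges 1 and 2. Values below are normalized counts, the deposited unit, and are given in the order a, 1, b, 3.

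Of 17 neutrophil granule and maturation genes on the panel, 12 passed the background filter. Mmp8, Elane, Mpo, Ctsg and Ly6g, the gene of the protein used for selection, did not. S100a9, which with S100a8 forms the neutrophil protein calprotectin, read 1959 or more in all 10 samples. The probe for Ly6g read 8.86, 4.40, 1.74 and 2.46 in the treated samples and from 3.43 to 8.23 with a median of 5.64 in vehicle, below the background limit of 29.3 in all 10. Transcripts typical of other cell types were measured too. Cdh1, which encodes the epithelial adhesion molecule E-cadherin and was the 1 epithelial marker of 10 listed that the panel holds, read 764, 1211, 1310.5 and 1216 in the treated samples and from 783 to 1253 with a median of 1104 in vehicle. Its level was lowest in sample a among the treated samples and in sample 2 among the vehicle samples.

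The amount of leukocyte transcript varied within both groups. Summed over Laptm5, Ptprc and Was, 3 genes shared by leukocytes, it was 1383, 311, 342 and 468 in the treated samples and ranged from 398 to 1721 with a median of 575 in vehicle. Sample a was high, samples 1 and b lay below every vehicle sample, and the groups overlapped. Over the 17 panel genes of neutrophil granules and maturation the sums were 22936, 4667, 4388 and 8145 in the treated samples and ranged from 6477 to 25652 with a median of 7506 in vehicle. In every treated sample most of this sum came from S100a9 and S100a8, so it mainly follows those genes and not the list as a whole. Sample a exceeded its 3 group mates, as vehicle sample 2 exceeded the other vehicle samples. Summed over the 9 markers on the panel of monocytes and macrophages, the levels were 3226, 544, 921 and 647, against a range from 759.7 to 5514 with a median of 1029 in vehicle. In these bulk samples, fewer cells of a type and less RNA per cell cannot be told apart. No marker of T and NK cells (2 on the panel), B cells (1) or mast cells (4) passed the background filter.

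**Figure D1:**
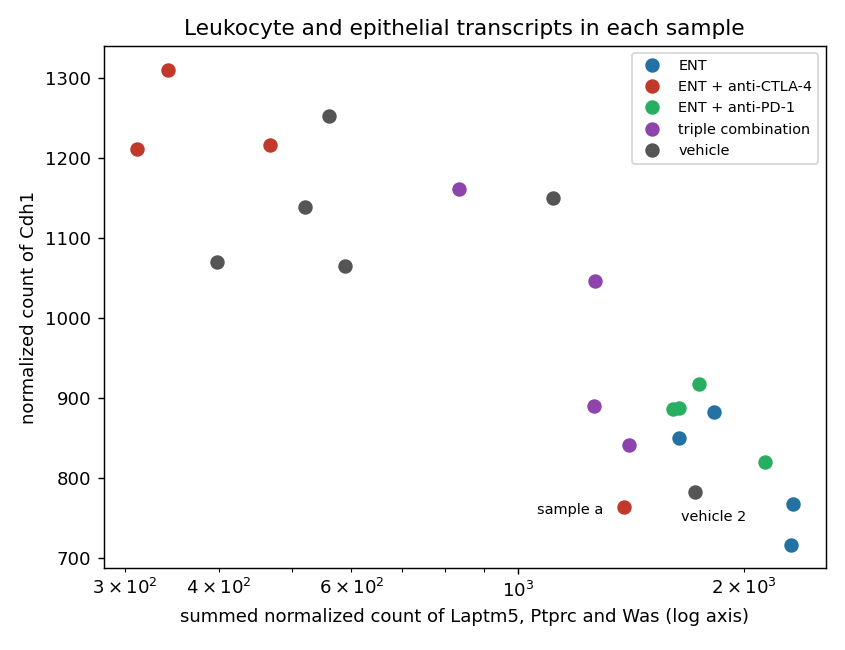
Normalized count of Cdh1 (vertical axis) against the summed normalized count of Laptm5, Ptprc and Was (horizontal log axis), 1 point per sample, coloured by group, over all 22 samples. Samples a (764) and vehicle 2 (783) have the lowest Cdh1 of their groups and the highest leukocyte sums.

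Sample a stood apart from the other treated samples across the panel. Its log2 values over the 420 tested genes correlated at 0.841, 0.826 and 0.864 with samples 1, b and 3, which correlated at 0.980 to 0.982 with each other. It correlated at 0.973 with vehicle sample 2 and at 0.944 to 0.980 with the 4 samples of entinostat alone. These are correlations across genes within pairs of samples, and genes are not independent replicates. The estimates described gene by gene and the list medians below are therefore also given without sample a and, separately, without vehicle sample 2. That sample had the highest value of each sum above among the vehicle samples. Vehicle sample 3 was next in each, at 1112 for the leukocyte, 12519.5 for the neutrophil and 4148 for the monocyte and macrophage sum. The part of cell makeup in the differences between groups was not tested.

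No gene passed the test of the combination against vehicle. With limma on log2 normalized counts, 0 of 420 genes passed an adjusted p of 0.05 (0%), 6 had an unadjusted p under 0.05, and the lowest adjusted p was 0.960. edgeR, with either of 2 scalings, and DESeq2 also called 0 genes. The estimates lay between -1.01 and 0.48 on the log2 scale, 117 above 0 and 303 below, with a median of -0.13 and a median SE of 0.27. For 260 genes the 95% interval stayed within 1 log2 unit of 0 in both directions, so that a 2-fold change lay outside it. For the other 160 the interval reached at least 1 unit. These intervals take their spread from all 5 groups. The median SD over samples was 0.28 with entinostat alone, 0.23 with entinostat plus anti-PD-1 and 0.40 with the triple combination. Fitted on the 2 compared groups alone, the SE was larger for some genes (S100a9, 0.59 against 0.44) and smaller for others (Arg1, 0.44 against 0.49). The intervals within 1 unit were not counted in that fit. The median SD over samples was 0.47 in the treated group and 0.43 in vehicle, and 108 genes had an SD over 1 in the treated group. Leaving out sample a lowered that median to 0.20 and that number to 3.

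Without sample a the count of genes called was again 0, but 109 genes had an unadjusted p under 0.05 and the lowest adjusted p was 0.0568. The median log2 fold change was then -0.35. Leaving out both sample a and vehicle sample 2, an alternative chosen after seeing the data, called 0 genes, with 72 at an unadjusted p under 0.05 and a lowest adjusted p of 0.130. Without vehicle sample 2 alone, 0 genes were called, 5 had an unadjusted p under 0.05, and the median was -0.06. Without vehicle sample 3 alone, these values were 0, 1 and -0.09. With cartridge as a block 0 genes were called and the median was -0.23. Within cartridge 2, which lacks vehicle sample 2, 0 were called and the median was -0.17. Estimates moved both ways there. S100a9 went from -0.37 to -0.10, S100a8 from -0.29 to -0.04 and Il1b from -0.35 to 0.02. Arg1 went from -0.95 to -1.18 and Vegfa from -0.40 to -0.52. Centring each sample on its median moved the median over all genes from -0.13 to 0.05, so estimates within that distance of 0 have no settled sign.

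Neutrophil granule and maturation genes did not pass, and most had estimates below 0. Of the 12 tested, 0 were called, 10 estimates were below 0, and the median was -0.33 (-0.88 without sample a, -0.06 without vehicle sample 2), against -0.13 over all tested genes. S100a9 read 12459.7, 2107, 1959 and 4309 in the treated samples and from 3347 to 14573 with a median of 4025 in vehicle. Samples 1 and b lay below every vehicle sample, while sample a was above all of them but vehicle sample 2. The estimated log2 change was -0.37 ± 0.44 (SE, 95% interval -1.30 to 0.55, limma adjusted p = 0.960). Without sample a it was -0.94 ± 0.37 (SE, limma adjusted p = 0.154), and without vehicle sample 2 it was -0.06. Its calprotectin partner S100a8 read 7226, 1308, 1079 and 2309, against a vehicle range from 1641 to 7803 with a median of 2078. The groups overlapped, and the log2 fold change was -0.29 ± 0.46 (SE, 95% interval -1.25 to 0.67, limma adjusted p = 0.968), or -0.86 without sample a and 0.02 without vehicle sample 2.

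Receptors that guide neutrophils had the same layout over samples. Cxcr2, the receptor for CXC chemokines that draw neutrophils into tissue, read 419.5, 92.3, 71.3 and 164 in the treated samples and from 126 to 409 with a median of 157 in vehicle. Sample a was above every vehicle sample and samples 1 and b below every one. The fitted log2 change was -0.25 ± 0.38 (SE, 95% interval -1.05 to 0.54, limma adjusted p = 0.960), without sample a -0.76 ± 0.31 (SE, limma adjusted p = 0.158) and without vehicle sample 2 -0.01. Csf3r, the receptor for the granulocyte growth factor G-CSF, had an estimate of -0.18 ± 0.37 (SE, 95% interval -0.96 to 0.60, limma adjusted p = 0.971). Without sample a it was -0.66, without vehicle sample 2 0.05 and with DESeq2 0.02. Itgam, the integrin chain CD11b, read 249.6, 54.4, 53.4 and 83.5, against a vehicle range from 64.6 to 281 with a median of 98.1, with an estimate of -0.45 ± 0.41 (SE, 95% interval -1.30 to 0.40, limma adjusted p = 0.960), or -0.94 without sample a and -0.21 without vehicle sample 2. Pglyrp1, a granule protein that binds bacterial peptidoglycan, departed from this layout: it read 595, 695, 848 and 630.0, with sample a the lowest of the 4.

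No gene of the suppressive effector list passed either. Besides genes such as Arg1 and Ptgs2, this list holds Stat3, Hif1a, Il4ra, Olr1 and Vegfa, which are transcription factors, receptors or growth factors. Of 11 tested, 0 were called, 10 estimates were below 0, and the median was -0.41 (-0.94 without sample a, -0.18 without vehicle sample 2). After centring on the sample median it was -0.23, with 8 below 0. Arg1, the arginase that depletes arginine, read 25.1, 22, 28.4 and 28.2 in the treated samples and from 23 to 116 with a median of 47 in vehicle. The treated samples kept to the low end of the vehicle range, sample a included. All 4 lay below the background limit of 29.3, so the size of this difference rests on values near background. The log2 fold change was -0.95 ± 0.49 (SE, 95% interval -1.97 to 0.08, limma adjusted p = 0.960), or -0.94 without sample a and -0.71 without vehicle sample 2.

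Ptgs2, the cyclooxygenase that starts prostaglandin synthesis, read 1769.6, 376, 487 and 896 in the treated samples and from 592 to 2732 with a median of 826 in vehicle. Samples 1 and b were below every vehicle sample. The estimated log2 change was -0.53 ± 0.42 (SE, 95% interval -1.41 to 0.36, limma adjusted p = 0.960), without sample a -0.95 ± 0.41 (SE, limma adjusted p = 0.171) and without vehicle sample 2 -0.25. Cd274, the checkpoint ligand PD-L1, read 339.7, 35.2, 68.4 and 60.2, against a vehicle range from 53.1 to 423 with a median of 88.4. Sample a was above all vehicle samples but sample 2, and the other 3 treated samples were below the vehicle median. The estimate was -0.41 ± 0.65 (SE, 95% interval -1.77 to 0.94, limma adjusted p = 0.966), or -1.08 without sample a and -0.03 without vehicle sample 2. Cybb, the membrane subunit of the phagocyte oxidase, had an estimate of -0.85 ± 0.64 (SE, 95% interval -2.19 to 0.49, limma adjusted p = 0.960), or -1.44 without sample a and -0.56 without vehicle sample 2. Without vehicle sample 3 it was -0.50.

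Vegfa, the vascular growth factor, had 1 of the 5 smallest p-values among genes with a negative estimate. It read 244, 139, 200.1 and 214 in the treated samples and from 205 to 286 with a median of 279 in vehicle. Samples 1 and b were below every vehicle sample, and a and 3 lay within the vehicle range. The fitted log2 change was -0.40 ± 0.17 (SE, 95% interval -0.76 to -0.03, limma adjusted p = 0.960), without sample a -0.50 ± 0.18 (SE, limma adjusted p = 0.14) and without vehicle sample 2 -0.37. Stat3, a transcription factor that drives suppressive programmes in myeloid cells, was measured more tightly: 675, 616, 568 and 581, against a vehicle range from 554 to 774 with a median of 627. Its log2 fold change was -0.08 ± 0.11 (SE, 95% interval -0.30 to 0.14, limma adjusted p = 0.960), or -0.13 without sample a and -0.07 without vehicle sample 2. Tgfb1, the cytokine TGF-beta 1, read 331, 195, 188 and 204, with an estimate of -0.21 ± 0.22 (SE, 95% interval -0.68 to 0.26, limma adjusted p = 0.960), or -0.40 without sample a and -0.08 without vehicle sample 2. Nos2, Il10, Pdcd1lg2 and Ido1 did not pass the background filter and were not tested.

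**Figure D2:**
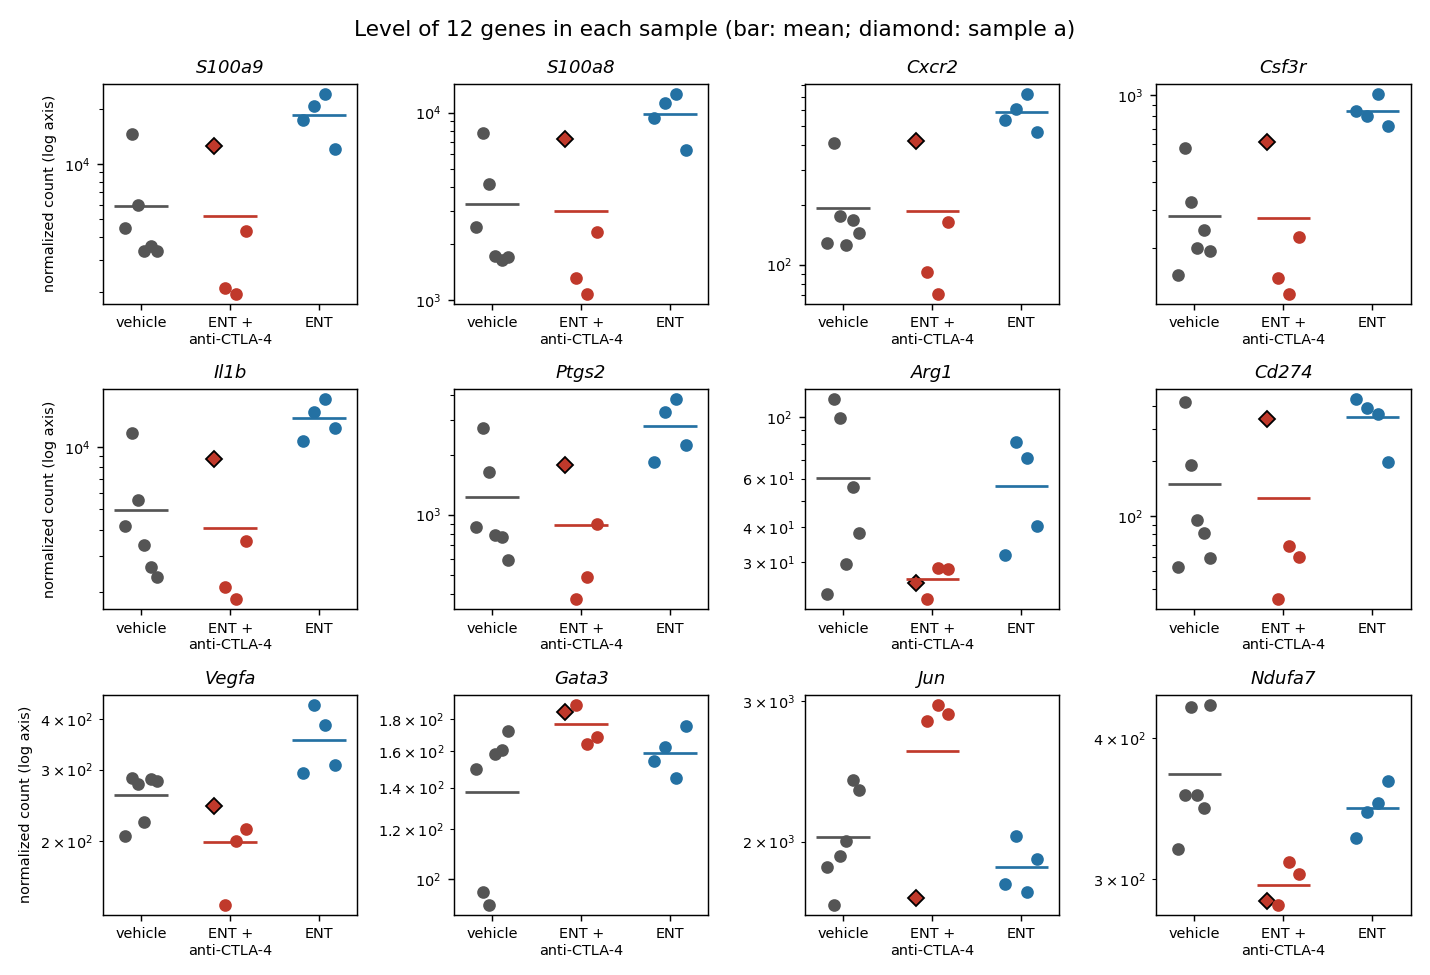
Normalized count (log axis) of 12 genes in each vehicle (grey), entinostat plus anti-CTLA-4 (red) and entinostat (blue) sample, with bars at the group means; the diamond is sample a. For S100a9 sample a lies at 12459.7, and the other 3 treated samples lie between 1959 and 4309, while for Ndufa7 the 4 treated samples lie together below all 6 vehicle samples.

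Among inflammatory cytokines and chemokines, 0 genes were called. NF-kB is a transcription factor that induces many of them, together with inhibitors that feed back on it. Of 19 tested cytokines and receptors induced by NF-kB or TNF, 0 were called, 15 estimates were below 0, and the median was -0.25 (-0.82 without sample a, -0.04 without vehicle sample 2). After centring, 11 were below 0. Il1b, the cytokine interleukin-1 beta, read 8746, 2123, 1850.3 and 3539 in the treated samples and from 2369 to 11618 with a median of 3754 in vehicle. Samples 1 and b were again below every vehicle sample. The log2 fold change was -0.35 ± 0.40 (SE, 95% interval -1.18 to 0.49, limma adjusted p = 0.960), or -0.81 without sample a and -0.05 without vehicle sample 2. Cxcl2, a ligand of Cxcr2, read 2880.4, 460.5, 501 and 760.2, against a vehicle range from 763 to 3807 with a median of 1058. Samples 1, b and 3 were all below the lowest vehicle sample. The estimate was -0.51 ± 0.46 (SE, 95% interval -1.46 to 0.44, limma adjusted p = 0.960), without sample a -1.10 ± 0.38 (SE, limma adjusted p = 0.14) and without vehicle sample 2 -0.18.

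Among 6 NF-kB subunits and feedback inhibitors, 0 were called and the median was -0.19 (-0.62 without sample a, 0.05 without vehicle sample 2), which became -0.01 after centring. Tnfaip3, the ubiquitin-editing inhibitor A20, read 2729.8, 659, 620.4 and 960.4, against a vehicle range from 685 to 2956 with a median of 1067. Its estimate was -0.27 ± 0.39 (SE, 95% interval -1.08 to 0.54, limma adjusted p = 0.960), or -0.75 without sample a and -0.02 without vehicle sample 2. Of 26 chemokine ligands on the panel, 13 passed the background filter, and these had 0 calls, 9 estimates below 0 and a median of -0.25 (-0.79 without sample a, 0.03 without vehicle sample 2). All 5 tested chemokine receptors had estimates below 0, none called, with a median of -0.41 (-0.91 without sample a, -0.14 without vehicle sample 2). Cx3cr1, the fractalkine receptor of monocytes, was the lowest of them at -0.90 ± 0.63 (SE, 95% interval -2.21 to 0.40, limma adjusted p = 0.960), or -1.27 without sample a and -0.57 without vehicle sample 2.

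Genes of antigen presentation did not pass in either pathway. MHC class II, which presents antigen to CD4 T cells, had 4 tested genes, 0 called, all 4 estimates below 0 and a median of -0.80 (-1.51 without sample a, -0.50 without vehicle sample 2). Among vehicle samples the median log2 difference of these genes from the vehicle mean was highest in sample 3, at 1.69, against 1.40 in sample 2. Cd74, the invariant chain of MHC class II, read 1744, 143, 289.9 and 176 in the treated samples and from 158 to 3034 with a median of 464 in vehicle. Sample 1 lay below every vehicle sample and the other 3 within their range, and the estimate was -0.77 ± 0.86 (SE, 95% interval -2.56 to 1.02, limma adjusted p = 0.960), or -1.56 without sample a and -0.47 without vehicle sample 2. The summed markers of monocytes and macrophages lay in the same order over the treated samples, a, b, 3 and 1 from high to low, and their part in the class II values was not tested.

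For MHC class I peptide loading, 6 genes were tested, 0 were called and the median was -0.09 (-0.12 without sample a, -0.05 without vehicle sample 2). Of these 6 intervals, 5 stayed within 1 log2 unit of 0, against 0 of the 4 for class II. Tapbp, which encodes tapasin, the chaperone that holds MHC class I at the peptide transporter, read 257, 309.8, 322 and 315 in the treated samples and from 209 to 289 with a median of 239 in vehicle. Samples 1, b and 3 were above every vehicle sample, and sample a was within their range. The estimated log2 change was 0.28 ± 0.14 (SE, 95% interval -0.01 to 0.56, limma adjusted p = 0.960), or 0.35 without sample a and 0.27 without vehicle sample 2. Psmb9, a subunit of the immunoproteasome, read 65, 33.6, 33 and 38.7, with an estimate of 0.36 ± 0.32 (SE, 95% interval -0.30 to 1.03, limma adjusted p = 0.960), or 0.15 without sample a and 0.48 without vehicle sample 2. Of 8 tested co-stimulatory and checkpoint molecules, 0 were called and all 8 estimates were below 0, 5 after centring. Ctla4 itself read at most 10.3 in the treated samples and 10.4 in vehicle, below background, and was not tested.

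Among transcription factors and stress genes, 0 were called. Gata3, a zinc-finger transcription factor of T cells and mammary epithelium, had the smallest p among genes with a positive estimate. It read 185, 189.9, 164 and 169 in the treated samples and from 91 to 172 with a median of 154 in vehicle. Samples a and 1 were above every vehicle sample, while b and 3 overlapped the upper vehicle samples. The fitted log2 change was 0.40 ± 0.16 (SE, 95% interval 0.06 to 0.74, limma adjusted p = 0.960), without sample a 0.38 ± 0.18 (SE, limma adjusted p = 0.194) and without vehicle sample 2 0.30. Jun, a subunit of the AP-1 transcription factor, read 1697, 2834, 2969 and 2888, against a vehicle range from 1667 to 2387 with a median of 1961. Samples 1, b and 3 were above every vehicle sample and sample a was near the lowest. The estimate was 0.33 ± 0.16 (SE, 95% interval -0.01 to 0.68, limma adjusted p = 0.960), without sample a 0.53 ± 0.15 (SE, limma adjusted p = 0.124) and without vehicle sample 2 0.28.

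Nr4a2, an immediate early nuclear receptor, read 288, 100.3, 78.9 and 122 in the treated samples and from 154 to 247 with a median of 194 in vehicle. Samples 1, b and 3 were below every vehicle sample and sample a above every one. The log2 fold change was -0.57 ± 0.26 (SE, 95% interval -1.12 to -0.01, limma adjusted p = 0.960), without sample a -0.95 ± 0.20 (SE, limma adjusted p = 0.0568), the lowest adjusted p of that fit, and without vehicle sample 2 -0.50. Over the 12 immediate early and stress genes tested, 0 were called and the median was -0.15 (-0.19 without sample a, -0.08 without vehicle sample 2).

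Ndufa7, a subunit of mitochondrial complex I, was the gene whose groups did not overlap. It read 287, 285, 310.2 and 303 in the treated samples and from 319 to 428 with a median of 356 in vehicle, so that all 4 treated samples lay below all 6 vehicle samples. Of 420 genes, 1 was lower without overlap (0.238%) and 0 were higher (0%). The estimated log2 change was -0.32 ± 0.14 (SE, 95% interval -0.61 to -0.03, limma adjusted p = 0.960), without sample a -0.31 ± 0.16 (SE, limma adjusted p = 0.218) and without vehicle sample 2 -0.33. The estimate depended on the scaling: it was -0.14 ± 0.23 (SE, limma adjusted p = 0.956) after centring on the sample median. With quantile normalization it was -0.17, and with edgeR and TMM factors -0.20. Overlap was judged on the deposited values only. No other gene of the mitochondrial respiration list was tested.

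The drug target family was thinly covered among the tested genes. Of 20 histone deacetylase and chromatin genes listed, 3 were among the endogenous genes and tested: Hdac5, Hist2h2aa1 and Ncor1. None of these is a class I deacetylase, the class that entinostat inhibits. Of them 0 were called, and the median was -0.12 (-0.07 without sample a, -0.08 without vehicle sample 2). Hdac5, a class II deacetylase, read 143, 85.5, 92.2 and 101, against a vehicle range from 63.8 to 178 with a median of 119, with an estimate of -0.13 ± 0.24 (SE, 95% interval -0.62 to 0.36, limma adjusted p = 0.971), or -0.28 without sample a and -0.08 without vehicle sample 2. Hdac6, a deacetylase of tubulin that the list lacks and that was chosen after its values were seen, read 29.5, 36.4, 37.1 and 35.6, with an estimate of -0.01 ± 0.19 (SE, 95% interval -0.42 to 0.39, limma adjusted p = 0.992), or 0.06 without sample a and -0.13 without vehicle sample 2. Hist2h2aa1, a histone H2A gene, read 1278, 1979, 1949 and 1811, and its estimate was -0.01 ± 0.13 (SE, 95% interval -0.29 to 0.27, limma adjusted p = 0.978), or 0.13 without sample a and -0.03 without vehicle sample 2. Among 5 cell cycle genes, 0 were called and 4 estimates were above 0, with a median of 0.16 (0.25 without sample a, 0.12 without vehicle sample 2). Top2a, the DNA topoisomerase of dividing cells, read 322, 610.0, 511 and 604, against a vehicle range from 331 to 535 with a median of 426. Samples 1 and 3 were above every vehicle sample, b was within the range and a was below it, and the estimate was 0.20 ± 0.20 (SE, 95% interval -0.23 to 0.63, limma adjusted p = 0.960), or 0.41 without sample a and 0.12 without vehicle sample 2.

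**Figure D3:**
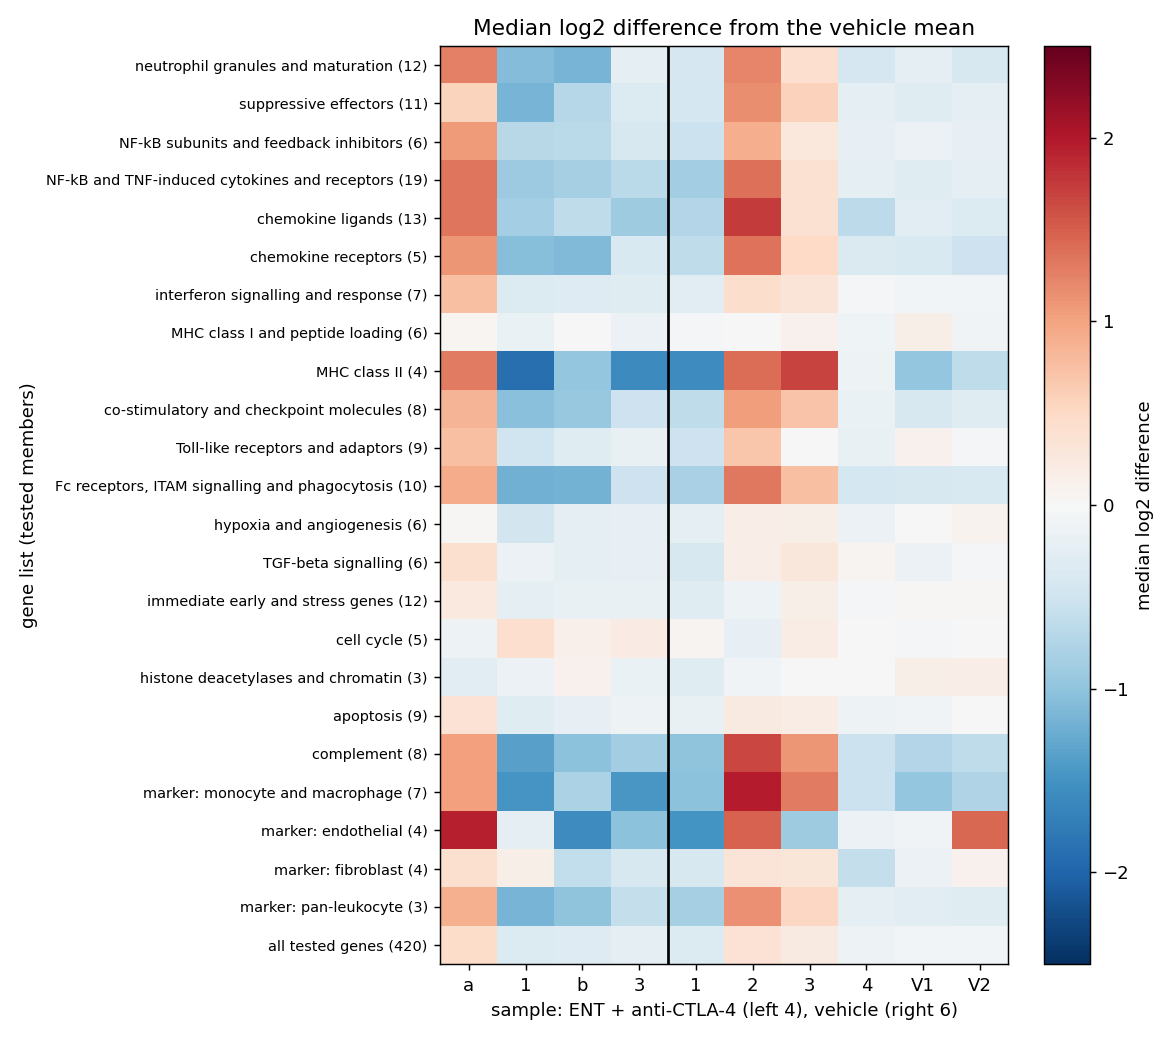
Median log2 difference from the vehicle mean (colour scale) for each gene list (rows, number of tested genes in brackets) in the 4 treated samples (left of the line) and 6 vehicle samples (right). For neutrophil granules and maturation sample a reads 1.27 and vehicle sample 2 reads 1.22, against -1.08 and -1.16 in treated samples 1 and b.

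The genes with the lowest and highest estimates did not pass. Rgs1, a regulator of G-protein signalling in leukocytes, had the lowest estimate: it read 112, 23.2, 37.7 and 47.9 in the treated samples and from 31.9 to 239.8 with a median of 79.4 in vehicle. The fitted log2 change was -1.01 ± 0.49 (SE, 95% interval -2.03 to 0.02, limma adjusted p = 0.960), or -1.42 without sample a and -0.74 without vehicle sample 2. Mmp12, the macrophage elastase, had an estimate of -0.98 ± 0.57 (SE, 95% interval -2.17 to 0.20, limma adjusted p = 0.960), or -1.49 without sample a and -0.74 without vehicle sample 2. Gpr65, an acid-sensing receptor, had one of -0.90 ± 0.52 (SE, 95% interval -1.99 to 0.19, limma adjusted p = 0.960), or -1.60 without sample a and -0.65 without vehicle sample 2. Selp, the adhesion molecule P-selectin of endothelium and platelets, had the highest estimate: it read 220.1, 40.4, 7.54 and 14.7, against a vehicle range from 2.66 to 88.3 with a median of 29.5. Sample a carried that estimate, which was 0.48 ± 0.95 (SE, 95% interval -1.50 to 2.46, limma adjusted p = 0.971) with all samples, -0.43 ± 0.92 (SE, limma adjusted p = 0.757) without it and 0.82 without vehicle sample 2. Summed over 4 endothelial markers, Selp among them, the treated samples read 461, 85.1, 24.9 and 40.5, against a vehicle range from 23 to 250.4 with a median of 85.2. Prok2, a chemotactic peptide of neutrophils, read 31, 9.59, 4.64 and 8.60, with an estimate of -0.75 ± 0.36 (SE, 95% interval -1.49 to -0.00, limma adjusted p = 0.960), or -1.23 without sample a and -0.60 without vehicle sample 2. Smaller estimates with p-values among the 5 smallest of their direction were those of Peli1 (0.22 ± 0.11), Insr (0.33 ± 0.19) and Daglb (-0.65 ± 0.30), and Gch1 (0.35 ± 0.22) was among the 5 highest estimates.

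**Figure D4:**
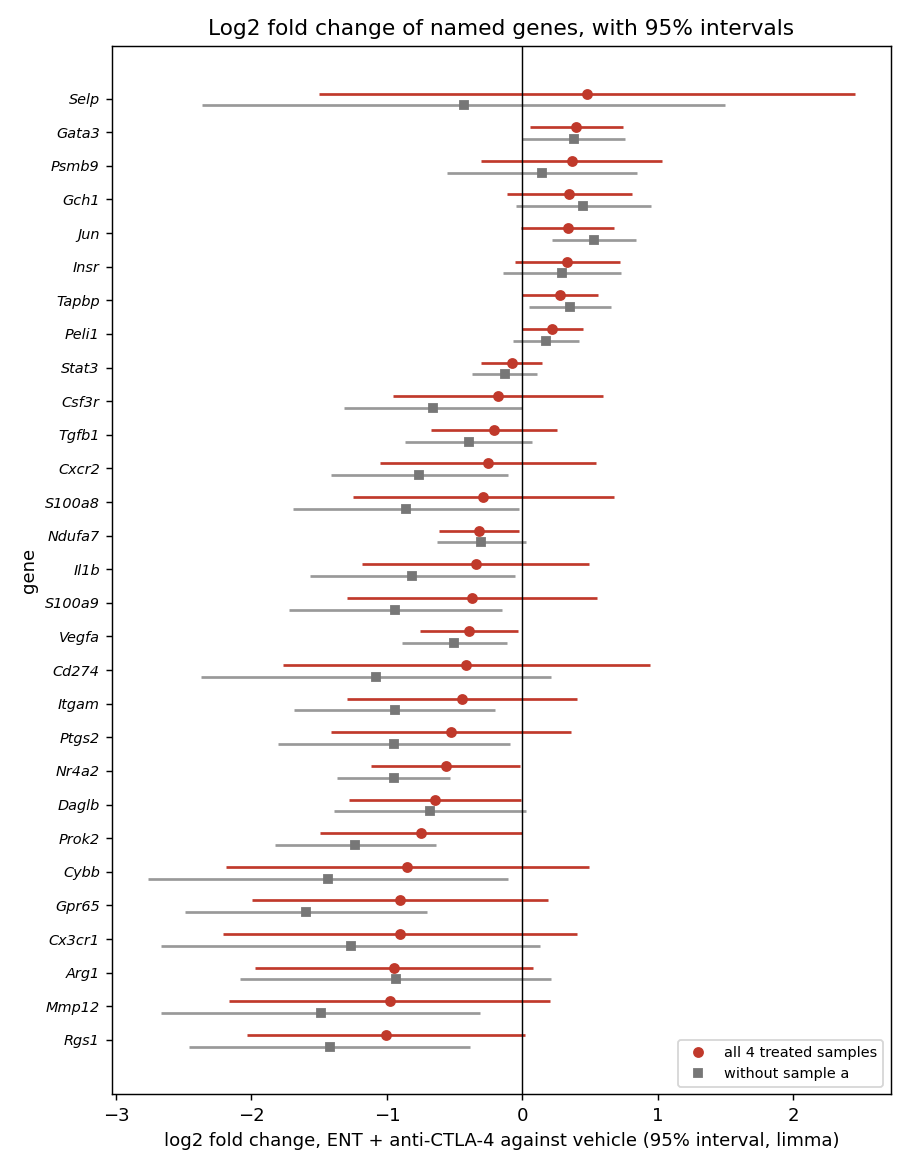
Log2 fold change of named genes against vehicle (horizontal axis) with 95% intervals from limma, for all 4 treated samples (red) and without sample a (grey squares). For Stat3 the red interval runs from -0.30 to 0.14, and for Selp from -1.50 to 2.46.

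The difference between the combination and entinostat alone was tested in the same fit. Here 203 of 420 genes passed an adjusted p of 0.05 in limma, 24 higher (5.71%) and 179 lower (42.6%) in the combination, with a median log2 difference of -0.67. The split depends on the scaling: centring on the sample median gave 121 higher and 104 lower, quantile normalization 112 and 86, edgeR with TMM factors 138 and 87, and DESeq2 139 and 101. All 4 samples of entinostat alone lay on cartridge 1 and all 4 of the combination on cartridge 2. With cartridge as a block, which vehicle and the triple combination link, 160 genes passed, 5 higher and 155 lower. The count was 119 without sample 1, 121 without sample b, 134 without entinostat sample 3 and 266 without sample a. The fit takes its spread from all 5 groups. Fitted on these 2 groups alone, 136 genes passed, 6 higher and 130 lower, and the lowest limma adjusted p was 0.0343. The smaller adjusted p-values printed below therefore rest on the shared spread. Both comparisons share the combination's samples, so their values are given side by side and not as independent results.

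Neutrophil genes were lower in the combination than with entinostat alone. Of the 12 granule and maturation genes, 11 were called lower and 0 higher, with a median of -2.04, against 42.6% lower, 5.71% higher and a median of -0.67 over all tested genes. After centring on the sample median, 11 were called lower and 1 higher, with a median of -1.33. S100a9 read 17414, 20641, 24140.2 and 12065 in the 4 entinostat samples, and sample a was just above the lowest of these while the other 3 lay below all 4. The log2 difference was -2.22 ± 0.48 (SE, limma adjusted p = 0.0028). Leukocyte transcripts moved with it: the Laptm5, Ptprc and Was sum was 1639 to 2320.5 with entinostat alone, above all 4 combination samples. Cdh1 read 882, 717, 768 and 849.9 there, and was higher in the combination at 0.46 ± 0.17 (SE, limma adjusted p = 0.035). The part of cell makeup in these differences was not tested.

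Genes of the suppressive effector list, regulators and receptors among them, differed in the same direction, with 10 of 11 called lower and a median of -0.99. Over all tested genes 42.6% were called lower and the median was -0.67. After centring on the sample median, 3 of the 11 were called lower and the median was -0.28. Among the 5 with the smallest p on the lower side, Jak3, a kinase of cytokine receptors, read 97.5, 58, 90.5 and 68.2 in the combination and 174, 188, 179 and 164 with entinostat alone. The groups did not overlap, and the log2 difference was -1.18 ± 0.18 (SE, limma adjusted p = 0.0014), though its adjusted p was 0.0663 after centring on the sample median. Il17ra, the interleukin-17 receptor, differed by -1.06 ± 0.19 (SE, limma adjusted p = 0.0026), with an adjusted p of 0.102 after that centring. Rhog, a small GTPase of phagocytes, differed by -1.67 ± 0.31 (SE, limma adjusted p = 0.0026). Csf1, the macrophage growth factor, differed by -1.67 ± 0.32 (SE, limma adjusted p = 0.0026). Pik3cg, a leukocyte lipid kinase, differed by -1.94 ± 0.36 (SE, limma adjusted p = 0.0026), from combination values of 2.90 to 19.2, below the background limit.

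On the higher side, Hist2h2aa1 read 1278, 1979, 1949 and 1811 in the combination and 1118, 963, 1041 and 1090.5 with entinostat alone. The groups did not overlap, and the log2 difference was 0.72 ± 0.15 (SE, limma adjusted p = 0.0026). Pdgfra, a growth factor receptor of fibroblasts, differed by 0.71 ± 0.21 (SE, limma adjusted p = 0.012), Cd151, a tetraspanin, by 0.44 ± 0.14 (SE, limma adjusted p = 0.017), Rab3d, a secretory GTPase, by 0.47 ± 0.15 (SE, limma adjusted p = 0.018), and Plau, the urokinase, by 0.59 ± 0.19 (SE, limma adjusted p = 0.019). With cartridge as a block the adjusted p of these 4 was 0.119, 0.0638, 0.230 and 0.190, in that order.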

How the data were processed

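RNA from Ly6G-selected tumour cells was measured on the NanoString Mouse Myeloid panel, per the labels' protocols. The deposited values are normalized counts (a signal, not raw counts); the submitters' processing notes name limma, and the normalization itself is not given in the sources used here. Samples were mapped by column names, and 0 value columns were left unused. Low values in each sample were whole multiples of 1 step, which gave the barcode counts used for edgeR and DESeq2.

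Normalized counts plus a pseudocount of 1 were taken to log2. Genes were tested where any group's mean lay above the negative controls' mean plus 2 SD (29.3 normalized counts), leaving 420 of 655 genes and 235 untested. limma 3.58.1 in R 4.3.3 fitted 5 group means over all 22 samples, two-sided, with Benjamini-Hochberg adjustment over the 420 genes and a threshold of 0.05. A fold change on this scale understates the change of low genes. edgeR 4.0.16, DESeq2 1.42.0, other scalings, filters, pseudocounts, cartridge and left-out samples were alternatives. Scripts were tested on simulated data.

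Genes were named by a rule: a set list, the 5 smallest p and the 5 most extreme estimates in each direction, genes whose groups do not overlap, up to 3 of the highest-level genes of each list, and the 5 smallest p in each direction against entinostat; of these, the text prints those its paragraphs describe. The values of a single gene are not reported here. The comparison, the rule and the gene lists were chosen with earlier results of these data known. Symbols are the file's; 665 of 675 panel symbols matched RefSeq.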

Additional observations from a re-analysis of the deposited data

Results flagged for a closer look

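Single samples stood far from the rest of their group in 6 of 80 checks of a named gene or marker sum in a group; chance flags about 1 in 20 groups. Sample a of entinostat plus anti-CTLA-4 stood apart for Tgfb1 (330.88 normalized counts), Jun (1697.23), the sum of the T and NK cell markers (20.68) and Cdh1, the epithelial marker (763.68). The T and NK cell sum covers 2 genes that did not pass the background filter, and it read 21.32 in vehicle sample V2. Vehicle sample 2 stood apart for Cxcr2 (409.04) and Cdh1 (782.82). In both samples Cdh1 was low against the group while leukocyte transcripts were high, and the cause was not tested.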

How the results depend on the processing

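Against vehicle, 0 genes passed in every alternative run but 1. Sample weights (limma's arrayWeights) called 18, 2 higher and 16 lower; the cause was not tested. Of the genes named by the rule, Jun, Nr4a2, Prok2, Gpr65, Cxcl2, Vav1, Ptprc and Was passed there. Leaving out each replicate in turn gave 0 genes each time. The replicate block gave 0 genes against vehicle and 211 against entinostat alone. The deviations of the same-numbered samples correlated across genes at 0.494 for number 1 and -0.262 for number 3. These correlations cannot decide whether same-numbered samples are paired, since samples also differ in shared ways across many genes. Against entinostat alone, sample weights called 320 genes and leaving out 1 sample gave 119 to 266: 119 without sample 1, 121 without sample b and 134 without entinostat sample 3. The fit within cartridge 2 gave no value there, since no sample of entinostat alone lies on it.

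The estimates of 87 genes against vehicle kept their sign and their side of the threshold in 2190 values, whatever the size of the shift. In 151 values, over 35 genes, the sign changed without the gene passing. In 8 values, all with sample weights, the sign was kept and the gene passed. Of 24 list medians, 601 values kept their sign and shifted by less than the SD between treated samples. The other 47, over 12 lists, did not. For the 10 genes against entinostat, 218 values stayed and 22, over 7 genes, no longer passed. With 4 and 6 samples the median SE was 0.27 on the log2 scale, and 235 genes lay at background and were not tested.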

Other observations

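Complement and death-pathway genes gave further values against vehicle. Complement components tag targets for uptake, and the list also holds the receptors C5ar1 and C3ar1 and the integrin chains Itgam and Itgax. Of 8 complement genes tested, 0 passed, 7 estimates were below 0 and the median was -0.54 (-1.07 without sample a, -0.22 without vehicle sample 2). The exception was C3, the central component of the cascade, which read 315, 376, 363 and 352 in the treated samples and from 192 to 385 with a median of 282 in vehicle, with a log2 fold change of 0.30 ± 0.18 (SE, 95% interval -0.07 to 0.68, limma adjusted p = 0.960), or 0.35 without sample a and 0.38 without vehicle sample 2. C1qa, a chain of the macrophage-made initiator C1q, read 428, 76.3, 141 and 74.9, against a vehicle range from 91.6 to 900.4 with a median of 119. C5ar1, the receptor for the anaphylatoxin C5a, read 659, 102, 115 and 166, with sample a close to the highest vehicle sample at 702. Of 9 apoptosis genes, 0 passed, and the median was -0.09 (-0.24 without sample a, -0.01 without vehicle sample 2).

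Receptor and signalling lists gave 0 calls as well. Of 10 Fc receptor, ITAM signalling and phagocytosis genes, through which myeloid cells sense antibody-coated targets, 9 estimates were below 0 and the median was -0.51 (-1.01 without sample a, -0.23 without vehicle sample 2). Tyrobp, the adaptor DAP12, read 1337, 233, 219 and 413 in the treated samples and from 336 to 1512 with a median of 449 in vehicle, and samples 1 and b were below every vehicle sample. Of 7 interferon signalling and response genes the median was -0.09 (-0.29 without sample a, -0.05 without vehicle sample 2), and centring on the sample median turned it to 0.09. Irf1, a transcription factor induced by interferon, read 855, 415, 377 and 357, against a vehicle range from 289.5 to 665 with a median of 444. The medians were -0.17 (-0.47 without sample a, -0.03 without vehicle sample 2) for 9 Toll-like receptors and adaptors, -0.08 (-0.22 without sample a, -0.07 without vehicle sample 2) for 6 TGF-beta signalling genes and -0.23 (-0.35 without sample a, -0.27 without vehicle sample 2) for 6 hypoxia and angiogenesis genes, beside -0.13 over all tested genes. After centring these were 0.01, 0.10 and -0.05.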
